A study of Mus musculus with 4 samples.

Results

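The Tribbles pseudokinases are *Trib1*, *Trib2* and *Trib3*, and their members were taken by gene name from the array's annotation, which gave 3 genes and 6 probes among 29676 gene names and 39429 non-control probes. The expression of these genes was compared between untreated astrocyte-enriched cultures (AECs) and AECs kept for 15 h under oxygen–glucose deprivation (OGD). AECs in both groups were mixed glial cultures of cerebral cortex from newborn ICR mice (postnatal days 1 to 3), in which microglia had been depleted with PLX3397 (pexidartinib), which blocks the receptor CSF1R that microglia need to survive. OGD combined glucose-free medium with an oxygen level of 0 to 1%, and untreated cultures received neither. There were 2 arrays per group, each hybridized with Cy3-labeled RNA of a culture prepared from pooled pups, and all 4 arrays lay on 1 slide. The genes were selected with their difference between untreated and OGD arrays already known, so their own values are given as a description. No p is given for them, and nothing is read from the number of their calls.

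Tribbles proteins carry a kinase-like domain with little or no catalytic activity and work as scaffolds. A motif in their tail recruits the ubiquitin ligase COP1, and the pseudokinase domain holds the protein to be degraded, of which the transcription factor C/EBPα is the best known for TRIB1 and TRIB2. TRIB3 is known as a stress-induced member: its gene is transcribed by ATF4 and CHOP when phosphorylation of eIF2α lowers translation, and its protein binds AKT and ATF4 itself.

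The probes are shown first, because the upstream probe of *Trib1* did not give the same result as the downstream pair. Each is 60 bases long, and its first 30 bases are printed 5′ to 3′ in lower case, as deposited. No part of these runs is marked by capitals.
Trib1 A_51_P355434: tgtagtcttcacatctatcagccacgcacg
Trib1 A_55_P2082806: tggagacggaaacatattccctacagggaa
Trib1 A_52_P573552: atctttaagggctatgcctagggagactac
Trib2 A_52_P220810: actctggcttttctattgctgtatgataca
Trib2 A_55_P2082786: tgagccggtagacccgagcttatttccttt
Trib3 A_55_P2009988: ggttaagtgtgtattttcatcatgtgccca

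On mm9, the build of the file headers, the *Trib1* probes lie on the plus strand at chr15:59485136-59485195 (A_51_P355434), chr15:59487475-59487534 (A_55_P2082806) and chr15:59487662-59487721 (A_52_P573552). The latter pair starts 2339 and 2526 bases downstream of the first and is assigned to the RefSeq transcript NM_144549, at bases 2846 and 3033 of it. The first probe is assigned to another transcript model, ENSMUST00000118228.1, at base 2972, together with a full-length cDNA clone (AK041212). It therefore sits further along its own model than A_55_P2082806 does on NM_144549, although it lies upstream on the chromosome. The *Trib2* probes lie on the minus strand at chr12:15799009-15799068 (A_52_P220810) and chr12:15822772-15822831 (A_55_P2082786). Both are assigned to NM_144551, at bases 3662 and 760, and are 23763 bases apart in the genome. The only *Trib3* probe, at chr2:152163161-152163220 on the minus strand, starts at base 1991 of NM_175093. Exon and UTR limits on mm9 were not analysed here. None of the 6 printed runs occurred in another probe of the array.

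All 6 probes had 1 spot per array, and each was well above background on all 4 arrays by the scanner software's mark. Values are processed signals, which are intensities after background and spatial correction, or normalized values. The latter are log2 of the processed signal minus the 75th percentile of the same array. That percentile was 2135 and 2164 for untreated AECs and 887 and 776 for those under OGD, while 9 spiked-in control RNAs had nearly equal signal on all arrays (mean log2 11.8 to 11.9). The methods label an equal mass of total RNA for each array, so neither scale measures RNA per cell. Scaling on the spiked-in RNAs in place of the percentile lowered the log2 fold change of each probe with a value on all 4 arrays by 1.29 and moved the median over all 28254 probes tested from 0.18 to −1.11. A value near this median thus changes direction with the scale. The log2 fold changes below are on the percentile scale unless spike-in scaling is named. All 9 astrocyte markers examined were well above background on every array. Of 8 microglial markers, 7 were well above background on both untreated arrays and 6 on both OGD arrays, although microglia had been depleted, with a median normalized value of −4.95 and −4.46. All 9 oligodendrocyte lineage markers were well above background on both untreated arrays and 8 on both OGD arrays, and 6 and 5 of 6 neuronal and 4 and 3 of 4 meningeal fibroblast markers were. Of 4 endothelial markers, *Cldn5* and *Tek* were not well above background in untreated AECs. The summed processed signal, with no scaling, was lower on both OGD arrays for all 6 lists. It was 3286 to 3901 in untreated AECs and 1345 to 1817 after OGD for the microglial markers, 307848 to 345593 and 178939 to 200029 for the astrocyte markers, and 31055 to 39606 and 8923 to 9365 for the meningeal fibroblast markers. On the normalized scale, 9 of 9 astrocyte, 6 of 8 microglial, 5 of 9 oligodendrocyte lineage, 3 of 6 neuronal, 1 of 4 meningeal fibroblast and 1 of 4 endothelial markers had a higher mean after OGD. The part of these cells in the Tribbles values was not tested, and in bulk RNA fewer cells of a type and less RNA per cell cannot be told apart.

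*Trib3* was far higher after OGD. Its processed signal was 1067 and 1139 in untreated AECs and 9413 and 8070 after OGD. The OGD arrays were both well above the untreated ones, with no overlap. The normalized log2 value was −0.96 ± 0.053 (SD, n = 2) in untreated AECs and 3.39 ± 0.021 (SD, n = 2) in those under OGD. The log2 fold change was 4.36 (SE 0.079), or 20.5-fold. The difference between any OGD and any untreated array ranged from 4.30 to 4.41 on the log2 scale, so the replicates differed far less than the groups. With spike-in scaling the log2 fold change was 3.07, or 8.39-fold, in the same direction but below the 10-fold limit of the study's methods. The ratio of the geometric means of the processed signals, with no scaling at all, was 7.91. Only 0.333% of all probes tested had a higher log2 fold change than *Trib3*.

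**Figure D1:**
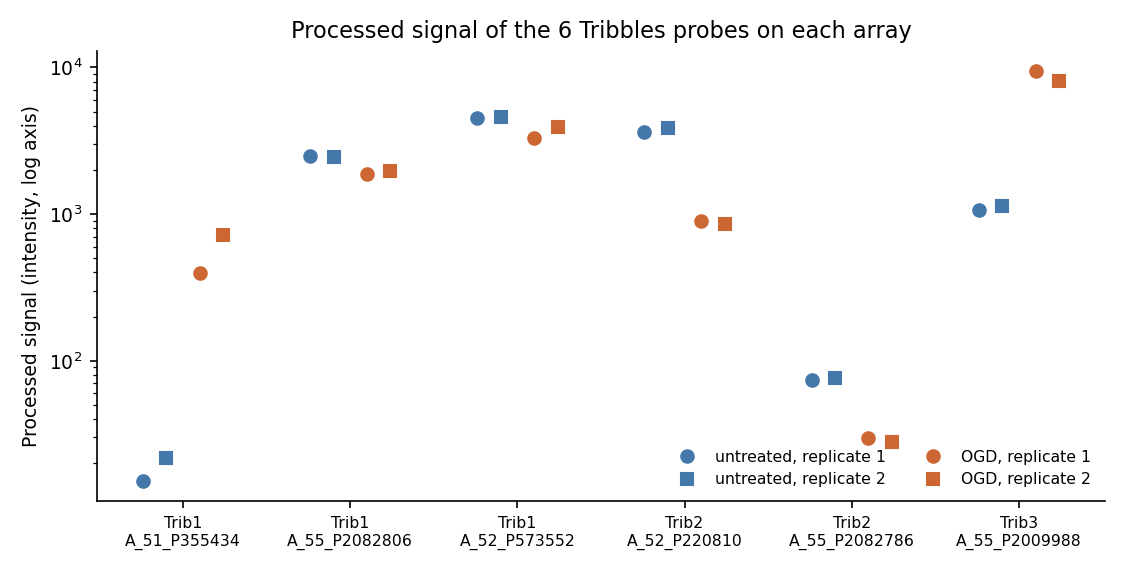
Processed signal (intensity, log axis) of each Tribbles probe on the 4 arrays; circles are replicate 1 and squares replicate 2 of untreated (blue) and OGD (orange) AECs. Before any scaling between arrays, *Trib3* and the upstream *Trib1* probe A_51_P355434 were brighter on both OGD arrays. The downstream *Trib1* probes and the *Trib2* probes were brighter on both untreated arrays. The 75th percentile of all probes was also lower under OGD (887 and 776 against 2135 and 2164), so lower unscaled signal is not particular to these probes. The share of all probes without overlap was not counted.

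The upstream probe of *Trib1* differed from its downstream probes. The upstream probe, A_51_P355434, was dim in untreated AECs, with a processed signal of 15.2 and 21.7, and reached 394 and 719 after OGD. Both OGD arrays lay above both untreated arrays, and the OGD arrays differed from each other more than for any other Tribbles probe. The normalized log2 value was −6.89 ± 0.35 (SD, n = 2) against −0.64 ± 0.75 (SD, n = 2), a log2 fold change of 6.25 (SE 0.43) or 76.0-fold, with 5.47 to 7.03 between single arrays. Only 0.046% of all probes tested had a higher value.

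The size of this difference depended on how background was treated, and the untreated spots were close to it. The spot's mean intensity was 58.1 and 65.6 on the untreated arrays against a local background of 24 and 26, and 486 and 814 on the OGD arrays against 25.5 and 25. With normexp correction of these raw values the log2 fold change was 4.35, or 20.4-fold, in place of 76.0-fold. Spike-in scaling gave 4.96, or 31.1-fold. The direction was the same under all of these, and the ratio of the geometric means of the unscaled signals was 29.4.

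The downstream probes of *Trib1*, assigned to NM_144549, were well above background in both groups and differed far less between them. A_55_P2082806 had a processed signal of 2475 and 2446 in untreated AECs and 1864 and 1967 after OGD. Its unscaled signal was thus lower on both OGD arrays, whereas its normalized log2 value was higher on both, at 0.19 ± 0.026 against 1.21 ± 0.19 (SD, n = 2 each). The log2 fold change was 1.01 (SE 0.12), or 2.02-fold, on the percentile scale and −0.28 (SE 0.13) with spike-in scaling.

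A_52_P573552, which lies a little further downstream, behaved in the same way. Its processed signal was 4489 and 4588 against 3320 and 3940, and its normalized log2 value was 1.08 ± 0.0084 against 2.12 ± 0.31 (SD, n = 2 each). The log2 fold change was 1.05 (SE 0.17), or 2.06-fold, and −0.24 with spike-in scaling. Both probes therefore changed direction with the scale, and what did not depend on it was that they lay 0.83 and 0.87 above the median log2 fold change of all probes.

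The probes of *Trib1* spanned 5.24 on the log2 scale from the lowest to the highest log2 fold change. The same range was computed for 4856 genes that had 2 or more probes marked above background on each of the 4 arrays, of which 0.206% (10 genes, *Trib1* included) had a range as wide or wider, and the median range was 0.54. Among the 1024 of these genes with 3 or more probes, as *Trib1* has, 0.586% (6 genes) had such a range, and the median was 1.05. With normexp correction the range of *Trib1* was 3.39, which 0.659% of the 4856 genes (32 genes) equalled or exceeded. That the probes of *Trib1* disagree was known when the genes were chosen. These ranges compare differences, not levels, between probes. Which RNA the upstream probe reads was not tested.

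**Figure D2:**
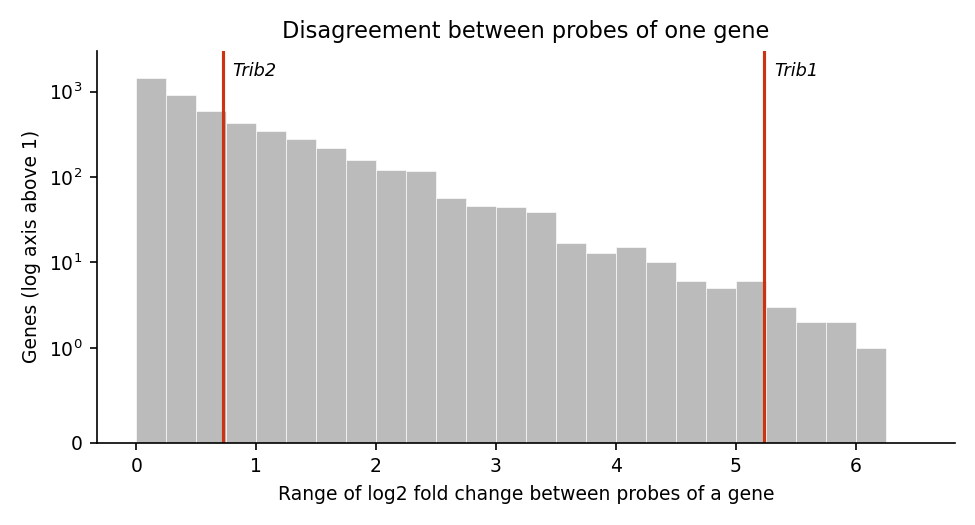
Number of genes (log axis above 1) by the range of log2 fold change between probes of the same gene, for 4856 genes that had 2 or more probes marked above background on each array. Red lines mark *Trib2* (0.72) and *Trib1* (5.24), which lies near the far right end of the distribution, where the widest range was 6.03; with normexp correction the values were 1.34 and 3.39.

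*Trib2* was lower after OGD at one probe and had no settled direction at the other. The probe near the end of NM_144551, A_52_P220810, had a processed signal of 3626 and 3876 in untreated AECs and 897 and 850 after OGD. Both OGD arrays were lower, without overlap, before and after scaling. The normalized log2 value was 0.80 ± 0.054 against 0.073 ± 0.080 (SD, n = 2 each). The log2 fold change was −0.73 (SE 0.089), or 1.66-fold lower, and −2.02, or 4.05-fold lower, with spike-in scaling. It was 0.91 below the median of all probes, and 79.5% of all probes tested had a higher log2 fold change.

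The other *Trib2* probe, A_55_P2082786, was dim, with a processed signal of 74.5 and 75.9 in untreated AECs and 29.8 and 28.0 after OGD. The unscaled signal was lower on both OGD arrays, but the normalized log2 values of −4.84, −4.83, −4.90 and −4.79 overlapped. The log2 fold change was −0.0087 (SE 0.082) on the percentile scale and −1.30 with spike-in scaling, and it was 0.68 with normexp correction, where it counted as higher at an adjusted p under 0.05. The direction at this probe therefore depended on the processing. The range between the *Trib2* probes, 0.72, was equalled or exceeded by 41.2% of the 4856 genes. With normexp correction it was 1.34, and 19.4% of the genes had as wide a range.

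**Figure D3:**
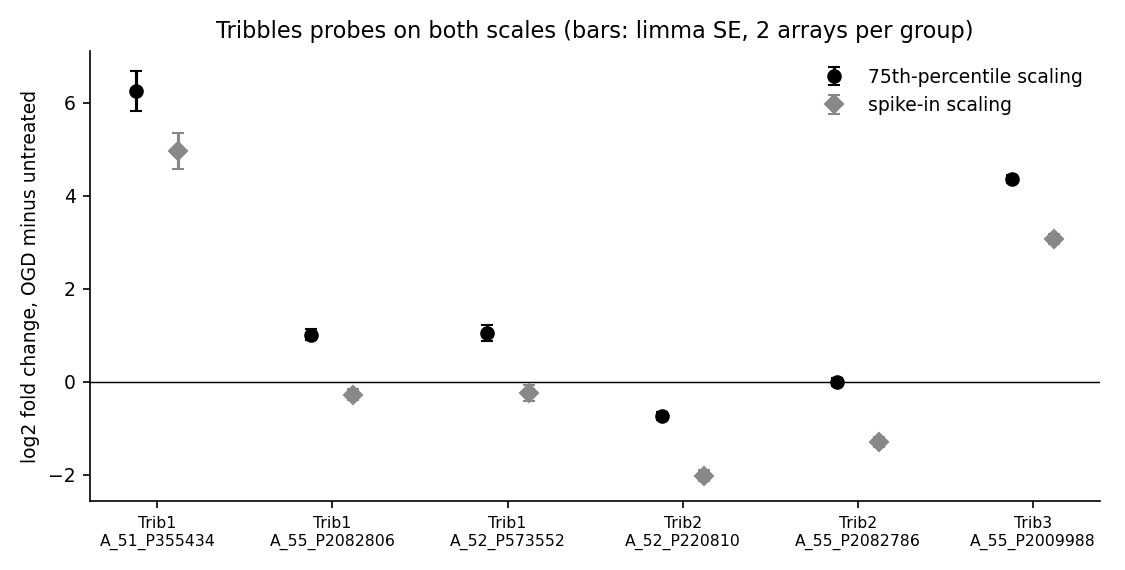
Log2 fold change (OGD minus untreated) of each Tribbles probe with its limma standard error (2 arrays per group), with 75th-percentile scaling (black circles) and spike-in scaling (grey diamonds). *Trib3* and *Trib1* A_51_P355434 stayed above 0 on both scales, *Trib2* A_52_P220810 stayed below 0, and the downstream *Trib1* probes moved from about 1 to slightly below 0 with spike-in scaling.

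At an adjusted p under 0.05, 4 of the 6 probes counted as higher after OGD, where 37.9% of all probes tested did, and 1 probe, A_52_P220810 of *Trib2*, counted as lower, where 27.1% did. With a fold change over 10 as a second limit, 2 probes counted as higher, A_51_P355434 of *Trib1* and that of *Trib3*, against 0.811% of all probes, and none (0) as lower, against 0.524%. With normexp correction 5 probes counted as higher, *Trib2* A_55_P2082786 being added, where 62.8% of all probes did, and 1 as lower, where 19% did. With spike-in scaling 2 probes counted as higher, against 4.47% of all probes, and 2 as lower, against 81.9%. Past both limits there, *Trib1* A_51_P355434 (1 probe) counted as higher and none (0) as lower, against 0.244% and 4.1% of all probes. The call of *Trib1* A_52_P573552 was lost with the methods' t-test and without either untreated array. The members were chosen on this contrast, so nothing is read from these counts.

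**Figure D4:**
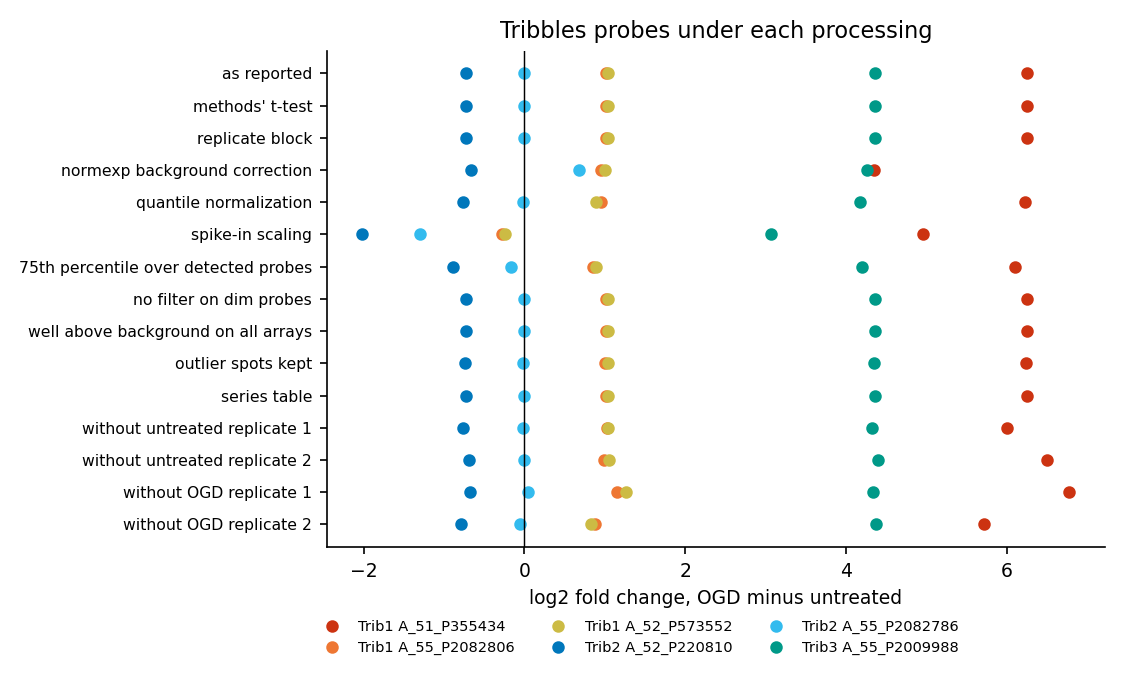
Log2 fold change (OGD minus untreated) of the 6 Tribbles probes under each processing tried, 1 row per processing and 1 color per probe. *Trib1* A_51_P355434 ranged from 4.35 to 6.78 and *Trib3* from 3.07 to 4.39, *Trib2* A_52_P220810 was between −2.02 and −0.67, and the remaining 3 probes lay on both sides of 0.

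The promoters of *Trib2* and *Trib3* were read from RefSeq (GRCm38.p6) as windows from 250 bases before to 50 bases after the start of the gene. No window was available for *Trib1*, so its promoter was not searched. The C/EBP-ATF composite site, to which ATF4 and CHOP bind as dimers, was searched as TGATGNAA, one part of it, on both strands. The *Trib3* window held 1 match, on the reverse strand of the gene with its first base at position 15, the start being position 1. It is shown in capitals within chr2:152344028-152344057.
Trib3: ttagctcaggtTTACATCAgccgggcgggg
The same letters occurred in 3.97% of 32851 such windows and not in that of *Trib2*.

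The cyclic AMP response element was searched as TGACGTCA (1.79% of windows) and as its part TGACGT (7.51%), and neither occurred in the *Trib2* or *Trib3* window. ACGTG, a form of the core of the hypoxia response element, occurred in 19.6% of windows and in that of *Trib2*. There it lay at the very start of the gene on its reverse strand, shown in capitals within chr12:15816768-15816797. ACGTG did not occur in the *Trib3* window. The core's other form, GCGTG, occurs in the 250 bases before the start of both genes, and its share over all windows was not counted.
Trib2: gagatccccggcCACGTaagtaactattaa
The G+C content of the 250 bases before the start was 57.2% for *Trib3* and 73.6% for *Trib2*, against a median of 52.4% over all windows. These matches are descriptions of letters in a short window.

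The genes around the Tribbles proteins were counted by the brightest probe of each gene, with limma's test adjusted over all probes. At an adjusted p under 0.05, 36.8% of all 20101 genes rose and 28.6% fell, and the median log2 fold change over all genes was 0.14. With spike-in scaling 3.8% of all genes rose and 83.8% fell, with a median of −1.15, and the counts of each list on that scale are to be read beside these shares. With a fold change over 10 as well, 0.706% rose and 0.582% fell.

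Genes upstream of *Trib3* in the integrated stress response were examined next. Of 12 genes for the eIF2α kinases, eIF2α and the ATF4 and CHOP factors, 7 rose, 1 fell and 4 did not pass the test, with a median of 0.54; with spike-in scaling the median was −0.75, 5 rose and 7 fell. *Atf4*, the transcription factor whose translation rises when eIF2α is phosphorylated, rose by 2.00 on the log2 scale (SE 0.076, adjusted p = 0.00077). That value was 1.08 with quantile normalization, and the other *Atf4* probe was at 3.04 on the percentile scale. *Ddit3*, which encodes CHOP, had a processed signal of 1567 and 1674 in untreated AECs and 4365 and 4183 after OGD, and rose by 2.77 (SE 0.092, adjusted p = 0.00073).

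The regulatory subunits that direct phosphatase 1 to eIF2α rose as well. *Ppp1r15a* (GADD34), the stress-inducible subunit, had a log2 fold change of 3.20 (SE 0.096) and *Ppp1r15b* (CReP), the constitutive one, of 2.77 (SE 0.11). Each of these 4 genes also stayed above 0 with spike-in scaling, between 0.72 for *Atf4* and 1.92 for *Ppp1r15a*. *Eif2ak2* (PKR), the kinase that senses double-stranded RNA, was the gene of this list that fell, by 2.43 (SE 0.098, adjusted p = 0.00078), with −3.71 in spike-in scaling.

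Genes known as ATF4 targets, a group to which *Trib3* itself belongs but in which it was not counted, were mostly higher after OGD. Of 22 tested, 21 rose and 1 fell, with a median log2 fold change of 1.34; with spike-in scaling the median was 0.051, 8 rose and 7 fell. *Chac1*, a glutathione-degrading enzyme, had the largest value, with a processed signal of 2455 and 2307 in untreated AECs and 22372 and 19670 after OGD. Its log2 fold change of 4.51 (SE 0.084, adjusted p = 0.00073) was the only value of the 4 lists above that of *Trib3* (1 gene).

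The other ATF4 targets past both limits were *Atf3*, a stress transcription factor (log2 fold change 3.75, SE 0.090), and *Mthfd2*, an enzyme of mitochondrial folate metabolism (3.34, SE 0.089). With spike-in scaling *Chac1*, *Atf3* and *Mthfd2* were at 3.22, 2.46 and 2.05, all below 10-fold. *Mthfd2*, at 10.1-fold, was also below 10-fold with normexp correction (3.20), quantile normalization (3.29), the percentile over detected probes (3.19), without untreated replicate 1 (3.30) and without OGD replicate 1 (3.28). *Vldlr*, a lipoprotein receptor, rose by 2.89 (SE 0.089), and by 1.60 with spike-in scaling. *Slc7a11*, the cystine-glutamate antiporter, was the gene of the list that fell, and it was named after its values were seen. Its processed signal was 119 and 122 in untreated AECs and 17.7 and 18.4 after OGD, and it fell by 1.36 on the log2 scale (SE 0.12, adjusted p = 0.0021), with −2.65 in spike-in scaling, but with normexp correction its log2 fold change was −0.029 and the call was lost.

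**Figure D5:**
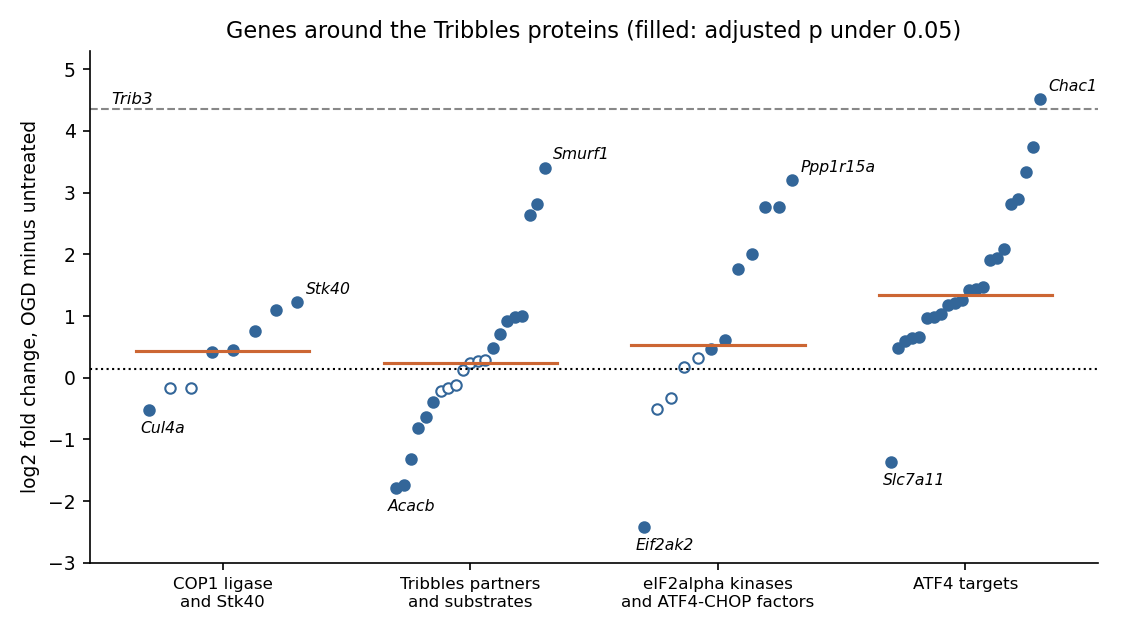
Log2 fold change (OGD minus untreated, 75th-percentile scaling) of each gene in the 4 lists, 1 point per gene, filled where the adjusted p was under 0.05; orange lines are list medians, the dotted line is the median of all genes (0.14) and the dashed line is *Trib3* (4.36). *Chac1* is the only point above *Trib3*; spike-in scaling lowers every point by 1.29, which brings all 8 genes of the COP1 list below 0.

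The direction of the genes for the ubiquitin ligase that Tribbles proteins recruit depended on the scale. Of 8 genes for COP1, its cullin-based complex and *Stk40*, a related pseudokinase that also binds COP1, 5 rose, 1 fell and 2 did not pass the test on the percentile scale, whereas 0 rose and 6 fell with spike-in scaling. The list's median was 0.44 on the percentile scale and −0.85 with spike-in scaling, where 83.8% of all genes fell and their median was −1.15. *Stk40* had a log2 fold change of 1.22 (SE 0.087, adjusted p = 0.0015) and *Cop1* of 0.76 (SE 0.084, adjusted p = 0.0036), but −0.07 and −0.53 with spike-in scaling. *Cul4b*, a cullin scaffold of the complex, was 2.14-fold higher by its brightest probe (log2 −0.19 with spike-in scaling), while its other probe had a log2 fold change of −0.59. *Cul4a*, its paralog, was at −0.52 (SE 0.079; −1.81 with spike-in scaling), a call lost without either untreated array, and its other probe at 0.60. Neither cullin had a settled direction.

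Among 21 genes for partners and substrates of Tribbles proteins, 8 rose, 6 fell and 7 did not pass the test; with spike-in scaling 3 rose and 16 fell, where 3.8% and 83.8% of all genes did. The list's median was 0.24 and, with spike-in scaling, −1.04. C/EBPα, which TRIB1 and TRIB2 target for degradation, is encoded by *Cebpa*, and the related C/EBPβ by *Cebpb*. *Cebpb* had a processed signal of 7656 and 7768 in untreated AECs and 21358 and 20438 after OGD and rose by 2.81 (SE 0.087, adjusted p = 0.00073), and by 1.52 with spike-in scaling. *Cebpa* had a signal of 310 and 331 against 79.5 and 79.1 and fell by 0.64 (SE 0.10, adjusted p = 0.0090), with −1.93 in spike-in scaling. This call was lost with normexp correction (−0.16), with the methods' t-test and without either untreated array (−0.68 and −0.60). *Cebpb* is also counted among the ATF4 targets above.

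*Smurf1*, a ubiquitin ligase of BMP receptor signaling, was the gene of this list past both limits (1 gene), at a log2 fold change of 3.40 (SE 0.080, adjusted p = 0.00073). *Pparg*, a nuclear receptor of adipocyte differentiation, rose by 2.64 (SE 0.077). Both remained above 0 with spike-in scaling, at 2.12 and 1.35, but *Smurf1*, at 10.6-fold, was below 10-fold there, with normexp correction (3.21) and with the percentile over detected probes (3.25). The acetyl-CoA carboxylases, enzymes of fatty acid synthesis that TRIB3 brings to COP1, were lower: *Acacb* fell by 1.79 (SE 0.078, adjusted p = 0.00081), and *Acaca* fell by 0.82 (SE 0.076, adjusted p = 0.0025), with −3.08 and −2.10 in spike-in scaling, although the 4 probes of *Acaca* ranged from −0.96 to 0.41.

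*Akt1* and *Akt2*, which encode kinases that TRIB3 is known to bind, did not pass the test on the percentile scale. *Akt1* was at −0.12 (SE 0.078, adjusted p = 0.23), but counted as lower with quantile normalization (−0.64), spike-in scaling (−1.41) and the percentile over detected probes (−0.28). *Akt2* was at 0.12 (SE 0.081, adjusted p = 0.26), with its 4 probes between −0.25 and 0.76, and was below 0 with quantile normalization (−0.46), spike-in scaling (−1.17) and the percentile over detected probes (−0.033). *Map2k1* (MEK1), which TRIB1 is known to bind, was at 0.47 (SE 0.096, adjusted p = 0.017) and at −0.81 with spike-in scaling, and its call was lost with quantile normalization (0.13), with the methods' t-test and without either untreated array.

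The probes with the pattern most like each Tribbles probe were found by the Euclidean distance between normalized log2 values over the 4 arrays, with the mean of each probe subtracted. For *Trib3* these were *Lonrf3* (distance 0.13), *Csf2* (0.14) and *Ero1l* (0.14). For the upstream *Trib1* probe they were *Pim1* (0.49), *Cxcl2* (0.60) and *Ccser1* (0.62). *Csf2*, *Cxcl2* and *Ccser1* were not well above background on the untreated arrays, so the distance rests there on values with only a bound.

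For the downstream *Trib1* probes, the nearest were *Gsdmc*, *H2-K2* and *Gpld1* (0.014 to 0.028) and *Has2os*, *Actn2* and *Hap1* (0.037 to 0.042). For the *Trib2* probes they were *Hid1*, *Dnah5* and *Shq1* (0.011 to 0.022) and *Pex11g*, *Chordc1* and *Mob1b* (0.015 to 0.017). These distances rest on 4 arrays and describe those arrays only.

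Probes within 100 kb of a Tribbles probe were also read. Near *Trib1*, the 3 probes tested had an adjusted p of 0.22 to 0.38 in limma, and those with a gene name belonged to *Nsmce2* (2 probes, log2 fold change −0.48 and 0.10). Near *Trib2*, 2 of 3 probes tested rose, both assigned to ENSMUST00000182234.1 (1.16 and 0.99), but they were at −0.13 and −0.30 with spike-in scaling. The latter probe lost its call with the replicate number as a block, with the methods' t-test and without 3 of the 4 arrays in turn (0.73 to 1.18 without them), OGD replicate 1 being the exception. Near *Trib3*, 5 of 9 probes tested rose and 2 fell. Over all probes tested 37.9% rose and 27.1% fell, and nothing particular to these neighbors is read from so few probes. Those that rose were *Tbc1d20* (0.57) and the 4 probes of *Csnk2a1* (0.36 to 1.09), all of which were below 0 with spike-in scaling. The *Csnk2a1* probe at 0.36 also lost its call with the block, the methods' t-test, quantile normalization (0.083), the percentile over detected probes (0.20) or no filter, and without any array but OGD replicate 2 (0.29 to 0.38). *Tbc1d20* lost it without either untreated array, as did the *Csnk2a1* probe at 0.63 without untreated replicate 1.

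*Zcchc3* fell on both scales, by 2.14 on the percentile scale (SE 0.12, adjusted p = 0.0010). *Sox12* was at least 2.41-fold lower (adjusted p = 0.015), a bound, since its probe was not well above background on the OGD arrays, and it was at 0.51 with normexp correction. Its call was lost with the methods' t-test and without either untreated array. *Rbck1* (−0.14) and *Nrsn2* (0.28) did not pass the test. *Rbck1* counted as lower with quantile normalization (−0.47), spike-in scaling (−1.42) and the percentile over detected probes (−0.29), and *Nrsn2* as higher with normexp correction (0.43) and without OGD replicate 1 (0.54). The highest log2 fold change among the neighbors of *Trib3* was 1.09, against 4.36 for *Trib3*.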

How the data were processed

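The authors labeled RNA with Cy3, hybridized it to single-color mouse arrays (4 arrays, 1 slide, 1 scan) and read the images with Agilent Feature Extraction (11.5.1.1 per the labels). They deposited the processed signal of each spot, an intensity with background and spatial trends subtracted within each array and no normalization between arrays; mean signal, local background and marks for dim, saturated and outlying spots are deposited with it. The authors' series table held the same values (largest difference 0) and served as an alternative.

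Control spots and spots marked as outliers (119 to 132 per array) were left out, and no spot was saturated (0). From the deposited intensity, log2 was taken, spots of a probe were averaged and each array's 75th percentile was subtracted. Probes well above background (at least a fraction of 0.5 of their spots) on both arrays of a group, untreated or OGD, entered the test, except 8 with outlier spots on both arrays of a group, which left 28254. Groups were compared in limma 3.58.1 (R 4.3.3, lmFit and eBayes) with Benjamini–Hochberg adjustment, at the authors' limits of 0.05 and 10-fold; the steps were tested on simulated data. Where a gene has several probes, its brightest over the 4 arrays stands for it. Python 3.11.15, pandas 2.3.3, numpy 2.4.6 and matplotlib 3.10.9 made the tables and figures.

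Arrays have no depth in reads, and their number limits the precision. The methods state that wells were seeded from independent cultures of different pups. Alternatives were the methods' t-test, a replicate block, normexp correction (offset 50), quantile normalization, spike-in scaling, the percentile over detected probes, other filters, outlier spots kept, the series table, each array left out, a 2-fold limit and the mean over probes. The members, gene lists, motifs and tests were chosen with earlier results of these data known. The genes named were all Tribbles probes, per list those past both limits and up to 4 of the largest changes, 11 fixed genes (1 of which is not reported here), the 3 nearest in pattern per probe, and neighbors within 100 kb. RefSeq symbols (GRCm38.p6) matched 5 of the 6 probe accessions. Exon limits on mm9 were not analysed here.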

Additional observations from a re-analysis of the deposited data

How the results depend on the processing

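Of 84 values of the 6 Tribbles probes under the alternatives, 76 kept their direction and side of the threshold, 4 changed direction, 3 lost and 1 gained the call. *Trib3*, *Trib1* A_51_P355434 and *Trib2* A_52_P220810 kept their direction and passed the adjusted p under all of them. The members were chosen on this contrast, so nothing is read from the calls they kept. With spike-in scaling, *Trib1* A_55_P2082806 was at −0.28, *Trib1* A_52_P573552 at −0.24 and *Trib2* A_55_P2082786 at −1.30; the last was at 0.68 with normexp, past the adjusted p. *Trib1* A_52_P573552 (1.05) lost its call with the methods' t-test and without either untreated array, and ranged from 0.83 to 1.26 with 1 array left out, while *Trib2* A_55_P2082786 ranged from −0.059 to 0.042. Tribbles probes higher went from 4 to 5 with normexp, to 3 with the methods' t-test and to 3 to 4 with 1 array left out (3 without either untreated array). They went to 2, lower from 1 to 2 and past both limits from 2 to 1 with spike-in scaling, which lowers the log2 fold change of each of them by 1.29. The cause of the other changes was not tested.

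Of all probes, 377 passed both limits, against 106 with normexp, 1227 with spike-in scaling, 240 with the filter on all arrays and 8108 at 2-fold. Those past the adjusted p went from 18354 to between 10742 and 19165 with 1 array left out, the lowest without untreated replicate 2 (11559 without replicate 1). For the COP1 list, 5 genes higher became 3 with quantile normalization, 0 with spike-in scaling and 3 to 5 with 1 array left out; 1 lower became 3 with quantile normalization or the percentile over detected probes, 6 with spike-in scaling, 0 with the mean over probes and 0 to 1 with 1 array left out; 0 past both limits became 2 at 2-fold. For partners, 8 higher became 3 and 6 lower became 16 with spike-in scaling, and 1 past both limits became 0 with normexp, spike-in scaling or the percentile over detected probes and 6 at 2-fold. For the eIF2α list, 1 lower became 3 with normexp, 7 with spike-in scaling, 2 with quantile normalization, the percentile over detected probes or the filter on all arrays and 1 to 2 with 1 array left out; 0 past both limits became 1 with spike-in scaling and 6 at 2-fold. For ATF4 targets, 21 higher became 8, 1 lower became 7 and 3 past both limits became 0 with spike-in scaling; 1 lower became 0 with normexp, and 3 became 16 at 2-fold.

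Among the other genes named, 38 of 774 values changed direction, most with spike-in scaling: *Stk40* −0.069, *Cul4b* −0.19, *Cop1* −0.53, *Akt2* −1.17, *Map2k1* −0.81, *Gsdmc* −0.27, *H2-K2* −0.26, *Gpld1* −0.28, *Has2os* −0.24, *Actn2* −0.21, *Hap1* −0.23, *Mob1b* −1.29, *Nsmce2* A_51_P389386 −1.18, ENSMUST00000182234.1 −0.13 and −0.30, *Nrsn2* −1.01, *Tbc1d20* −0.72 and *Csnk2a1* −0.29, −0.20, −0.66 and −0.93. With normexp these were *Shq1* 0.024, *Pex11g* 0.31, *Nsmce2* A_52_P505501 0.10 and *Sox12* 0.51; with quantile normalization *Akt2* −0.46 and *Pex11g* 0.073; with the percentile over detected probes *Akt2* −0.033, *Mob1b* −0.15 and *Nsmce2* A_51_P389386 −0.048; with outlier spots kept *Mob1b* −0.0069; and with the mean over probes *Cul4a* 0.039. With 1 array left out, *Pex11g* reached 0.059, *Chordc1* lay between −0.063 and 0.042 and *Mob1b* between −0.049 and 0.052.

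Calls were gained by *Akt1* with quantile normalization (−0.64), spike-in scaling (−1.41) and the percentile over detected probes (−0.28), by *Rbck1* with the same (−0.47, −1.42 and −0.29), by *Pex11g* (−1.29), *Chordc1* (−1.30) and *Nsmce2* A_52_P505501 (−1.77) with spike-in scaling, by *Mob1b* (0.49) and *Nrsn2* (0.43) with normexp, and by *Nrsn2* without OGD replicate 1 (0.54). Over all genes, 36.8% rose and 28.6% fell, against 59.5% and 21.6% with normexp, 28% and 32% with quantile normalization, 29.9% and 33.5% with the percentile over detected probes and 3.8% and 83.8% with spike-in scaling.

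Arrays with the same replicate number did not deviate together (correlation −0.057), so the numbers were not taken as pairs. With the replicate number as a block, 17207 probes passed the adjusted p, 377 passed both limits, and the Tribbles counts stayed at 4 higher and 1 lower. Of the other named genes, 1 probe of ENSMUST00000182234.1 (0.99) and 1 of *Csnk2a1* (0.36) lost their call with the block. All arrays lay on 1 slide, so slide could not be a block. Signal over background limits the upstream *Trib1* probe in untreated AECs and *Trib2* A_55_P2082786 on the OGD arrays.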
